A study of Mus musculus with 6 samples.

Results

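Genes for heterotrimeric G protein subunits, RGS proteins, adenylyl cyclases and cyclic nucleotide phosphodiesterases were followed in 2 cell populations of young mouse muscle. PICs, interstitial cells defined in the field by PW1 (the product of Peg3), were the first population, and satellite cells, the resident stem cells of muscle fibres, were the second. Both were sorted by the submitters with flow cytometry on CD34 and Sca1, from hindlimb muscle that was digested to single cells; the mice were C57 black 6, 7 to 9 days old, with no treatment named. The gates are not given in the sources used here, nor is the number of mice per sample. Each population has 3 arrays labelled as biological replicates. Members were taken by gene symbol: every probe set whose only platform symbol was of the form Rgs, Adcy, Pde, Gna, Gnb or Gng with its number or letter. This gave 200 of 45037 probe sets and 83 genes, and each gene was read on the probe set with the highest mean over the 6 arrays. They comprised 19 RGS genes, 15 alpha, 5 beta and 11 gamma subunit genes, 10 adenylyl cyclases and 22 genes with a phosphodiesterase symbol. The remaining symbol, Gnasas1, names an antisense RNA of the Gnas locus and no G protein, and 2 of the phosphodiesterase symbols, Pde6d and Pde12, name proteins that do not break down cyclic nucleotides.

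A receptor of the G protein-coupled class makes the alpha subunit exchange GDP for GTP, and the alpha subunit and the beta-gamma pair then act on separate effectors. Alpha subunits of the Gs class activate adenylyl cyclases, which make cAMP, and those of the Gi class inhibit them; the Gq class activates phospholipase C-beta. RGS proteins speed up GTP hydrolysis by the alpha subunit and so end the signal, and phosphodiesterases break down cAMP and cGMP. In muscle stem cells, signalling through Gs and cAMP is known downstream of the calcitonin receptor.

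The labelled populations were set against marker genes. All 10 satellite cell markers examined, Pax7 and Myf5 among them, were higher in satellite cells. Of 7 markers of PICs and fibro-adipogenic progenitors that passed the filter on low values, 6 were higher in PICs, and Peg3, the gene of PW1, was not called: it lay at 14.41, 14.40 and 14.34 in PICs and 14.13, 14.17 and 14.27 in satellite cells on the log2 scale. The gene that gives PICs their name was thus higher on all 3 PIC arrays, but by less than 2-fold, whereas Pdgfra (3.92) and Cd34 (1.92) were called higher in PICs. Cd34 is counted among the 6, but the sort used its product, so it is no independent marker. Ly6a, which encodes Sca1, was not analysed here. Markers of other cells were present in both sorts: the 9 endothelial markers gave a summed intensity of 2062 to 7090 in PICs and 3655 to 5124 in satellite cells, and none of them was called (limma; 0 of 9). The 8 immune markers summed to 93 to 2634 in PICs and 132 to 3536 in satellite cells, highest on replicate 1 of each population, and replicate 1 was also the array with the highest erythroid Alas2 and Slc4a1. The 10 mural markers summed to 10758 to 19580 in PICs and 27039 to 28394 in satellite cells, but single markers went both ways: Cspg4 (2.23) and Pdgfrb (2.27) were higher in PICs, and Acta2 (-2.28) and Notch3 (-1.26) were lower. Schwann cell markers summed to 278 to 461 in PICs and 88 to 252 in satellite cells. Of the 3 that passed, S100b was higher in PICs (1.90), and Sox10 (1.22) was called only with the replicate number as a block. Of 8 muscle fibre markers 4 were higher and 2 lower in PICs, with sums of 4646 to 5425 in PICs and 4306 to 8636 in satellite cells. The part of these cells in the results below was not tested. In bulk RNA of this kind, fewer cells of a type and less RNA per cell cannot be told apart.

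Of the 83 genes, 48 entered the test, which asked for a log2 intensity over 4 (16 on the linear scale, called the low value level below) on 3 or more arrays. A gene was called when limma's adjusted p, over all 10855 genes tested, was under 0.05 and the populations differed at least 2-fold. By that rule 12 members were higher and 8 were lower in PICs, or 25.0% and 16.7% of those tested. Over all genes tested the shares were 16.7% and 13.0%, and 41.7% of members against 29.8% of all genes were called in either direction; the difference between these shares was not tested. The arrays of the 2 populations did not overlap in 33 of the 48 members (68.8%) and in 64.6% of all genes, which are similar shares. The median log2 difference, PICs minus satellite cells, was 0.28 over the members and -0.04 over all genes. In 3 of the 48 (Gnao1, Pde1a and Rgs8) all arrays of 1 population lay at or under the low value level, so these entered through the other population. The calls of Pde1a and Rgs8 are counted above, though the filter fixed their direction. Of the 35 members that did not enter, 31 stayed at or under that level on all 6 arrays.

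**Figure D1:**
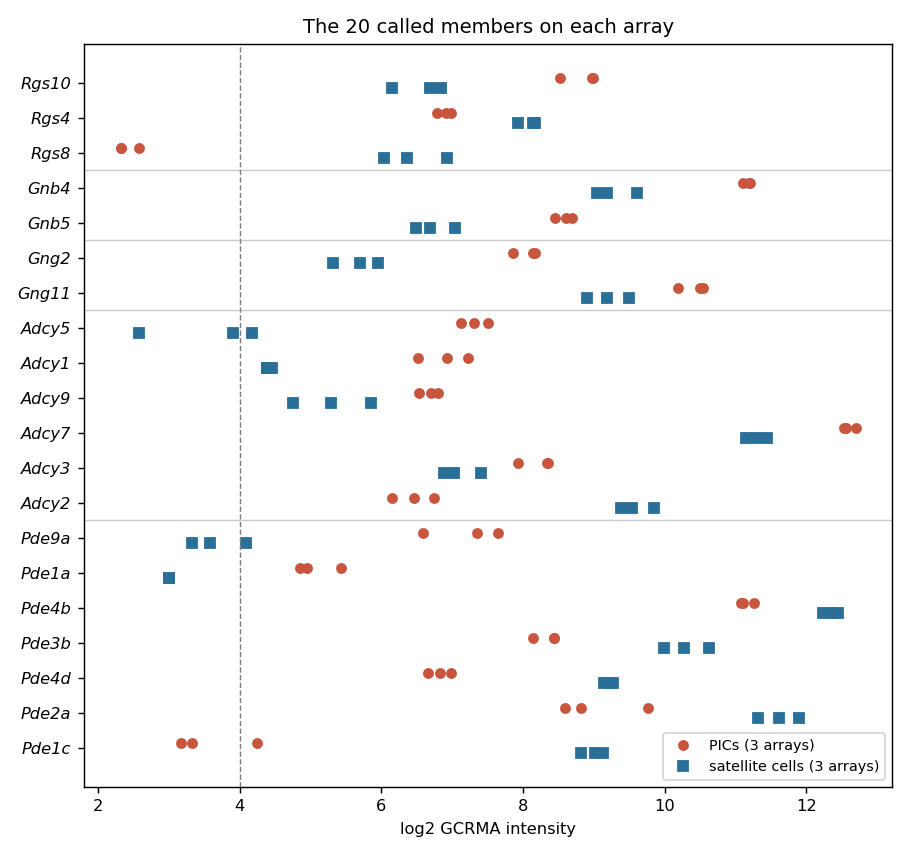
Log2 GCRMA intensity (x axis) of the 20 called members on each array, with PICs as circles above satellite cells as squares in each row; horizontal lines part the families and the dashed line marks the low value level of 4. In each of the 20 rows the 3 PIC arrays and the 3 satellite arrays do not overlap.

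None of the 9 alpha subunit genes that were tested differed by 2-fold, and 0 were called by limma (2 had an unadjusted p under 0.05, Gnai1 and Gnao1). Over all genes tested, 29.8% were called. Gnas, which encodes the Gs alpha subunit, lay at 14.77, 14.80 and 14.64 in PICs and 14.84, 14.96 and 14.90 in satellite cells on the log2 scale. Its satellite arrays were all higher, by a mean of 0.16 (difference -0.16, 95% interval -0.42 to 0.09; limma, adjusted p = 0.231). The Gi genes Gnai2 and Gnai3, whose products inhibit adenylyl cyclase, differed by 0.10 (-0.39 to 0.59) and 0.31 (-0.11 to 0.73), with overlapping arrays. Gnai2 lay at 12.25, 12.17 and 11.54 in PICs and 11.93, 11.88 and 11.85 in satellite cells. Gnai1 differed by 0.57 (adjusted p = 0.022), under the 2-fold limit: it lay at 9.75, 9.69 and 9.88 in PICs and 9.08, 9.02 and 9.50 in satellite cells. Gnao1, the Go subunit best known from neurons, had linear intensities of 29, 28 and 17 in PICs and 15, 14 and 12 in satellite cells, close to the low value level throughout (0.82, adjusted p = 0.0228), and passed the 2-fold limit without PICs replicate 3 (1.07, adjusted p = 0.00199). All its satellite arrays were under that level, so Gnao1 entered the test through PICs alone. The Gq genes Gnaq and Gna11, which signal to phospholipase C, differed by 0.30 and 0.25, and the G12 class genes Gna12 and Gna13 by -0.09 and -0.26. The 95% intervals of these 4 genes lay within -0.72 and 0.73, so a 2-fold difference was outside each of them. With the replicate number as a block, Gnaq and Gnai3 also passed the p threshold, short of 2-fold (limma, adjusted p = 0.0414 and 0.0490).

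Individual probe sets gave more than 1 picture for Gnas and Gna14. Gnas lies in an imprinted locus with several transcripts that differ in their first exons. A Gnas probe set other than the one used had linear intensities of 45, 117 and 60 in PICs and 9, 9 and 13 in satellite cells. All 3 satellite arrays were under the low value level, so it entered through PICs alone, and PICs were higher by at least 4.26-fold. A further one read 162, 136 and 28 in PICs and 178, 247 and 138 in satellite cells, and another read 285, 237 and 56 in PICs and 409, 345 and 135 in satellite cells. Neither of these 2 was called. Which transcripts each of them detects was not tested. Gna14, a Gq class gene, stayed under the low value level on the probe set used. Another of its probe sets read 20, 21 and 20 in PICs and 4 on each satellite array, at least 1.27-fold higher in PICs. It entered the filter through PICs alone and is not counted above.

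Of the 8 beta and gamma subunit genes tested, 4 were higher and 0 lower in PICs (median difference 1.01). Over all genes tested, 16.7% were higher and 13.0% lower. Differences between the share of a family and that of all genes were not tested. The beta subunit gene Gnb4 lay at 11.11, 11.19 and 11.20 in PICs and 9.18, 9.05 and 9.61 in satellite cells, a 3.70-fold difference (limma, adjusted p = 0.000206). Its other 2 probe sets were higher in PICs as well, by 2.15 and 2.53 on the log2 scale. Gnb5, the most divergent beta subunit, lay at 8.45, 8.61 and 8.69 in PICs and 6.49, 6.69 and 7.04 in satellite cells (3.59-fold, adjusted p = 0.000235). Gnb1 and Gnb2, by contrast, differed by -0.18 (95% interval -0.47 to 0.12) and -0.06 (-0.36 to 0.24), with overlapping arrays. Gnb2 lay at 12.25, 12.46 and 12.24 in PICs and 12.23, 12.45 and 12.45 in satellite cells.

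Among gamma subunits, which anchor the beta-gamma pair to the membrane through a lipid tail, Gng2 had the largest called difference. It lay at 8.14, 8.16 and 7.86 in PICs and 5.95, 5.32 and 5.70 in satellite cells (5.26-fold, adjusted p = 0.000154). Gng11 lay at 10.54, 10.50 and 10.18 in PICs and 9.49, 9.18 and 8.91 in satellite cells (2.32-fold, adjusted p = 0.00183). Gng10 and Gng12 were higher on all 3 PIC arrays, by 0.78 and 0.81, which passed the p threshold and missed the 2-fold limit (adjusted p = 0.00821 and 0.00229). Gng8 did not pass the filter: its linear intensities were 12, 42 and 31 in PICs and 4, 5 and 6 in satellite cells. Without the filter it was called higher in PICs. All satellite arrays and PICs replicate 1 were under the low value level, so that call is no support for a difference. Gng5 was no member, since its probe sets carry the symbol of a pseudogene too.

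RGS genes were called in both directions, 1 higher and 2 lower in PICs of 9 tested. These calls were 33.3% of the RGS genes tested, near the 29.8% of all genes. Rgs10, a small RGS protein that acts on Gi class subunits, lay at 8.53, 8.98 and 8.97 in PICs and 6.69, 6.15 and 6.85 in satellite cells, a 4.81-fold difference (adjusted p = 0.000313). Rgs8, of the R4 subfamily of small RGS proteins, was not above the low value level in PICs, with linear intensities of 5, 5 and 6, against 82, 122 and 66 in satellite cells. In satellite cells it was higher by at least 5.44-fold. Rgs8 entered the test through satellite cells alone, which fixed the direction of its difference, so its call is no independent support. Rgs4, another R4 member, lay at 6.98, 6.78 and 6.92 in PICs and 8.14, 8.17 and 7.94 in satellite cells (difference -1.19, adjusted p = 0.000333), and a second Rgs4 probe set gave -1.25. Rgs19, a regulator of Gi class subunits, was higher on all 3 PIC arrays by 0.86 (adjusted p = 0.00179), short of 2-fold. Rgs2, which acts mainly on Gq, lay at 9.86, 9.94 and 10.14 in PICs and 10.90, 10.51 and 10.44 in satellite cells, lower on all 3 PIC arrays but by less than 2-fold (difference -0.64, adjusted p = 0.0154). Its other probe sets above the low value level gave -0.30, with overlapping arrays, and -0.52 (limma, adjusted p = 0.376 and 0.0503).

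The 4 genes of the R7 subfamily, Rgs6, Rgs7, Rgs9 and Rgs11, stayed under the low value level on every array, between 2.00 and 3.46 on the log2 scale. R7 proteins are the known partners of the product of Gnb5, which was measured in both populations. Members of phototransduction served as a further floor: Gnat1, Gnat2, Gngt1, Gngt2, Gnb3, Pde6a, Pde6b, Pde6c and Rgs9, 9 genes known from photoreceptors, lay between 2.32 and 4.17, and only Gnb3 exceeded 4, on satellite replicate 2. Rgs1 and Rgs18, known from blood cells, also did not pass the filter. Rgs18 had a linear intensity of 15 on replicate 1 of both populations and 7 on the other 4 arrays, all under the low value level. Its other probe set read 6 on each PIC array and 11, 6 and 6 in satellite cells.

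In some members the spread within PICs was wider than the difference between the populations. Rgs16, an R4 member induced by many stimuli, lay at 9.23, 10.10 and 11.54 in PICs and 11.36, 11.96 and 11.81 in satellite cells, with PICs replicate 3 above satellite replicate 1. The difference of -1.42 was not called (95% interval -2.77 to -0.08; adjusted p = 0.0693). It was called with the replicate number as a block (adjusted p = 0.0303), and without PICs replicate 3 it was -2.05 (adjusted p = 0.00382). Pde12, a mitochondrial enzyme that acts on RNA ends, lay at 8.43, 9.39 and 11.42 in PICs and 8.92, 9.49 and 10.30 in satellite cells. The immediate early gene Fosb lay at 8.47, 9.78 and 11.50 in PICs and 9.07, 9.86 and 11.80 in satellite cells, so replicate 3 was the highest PIC array for Rgs16, Pde12 and Fosb, and the highest satellite array for Pde12 and Fosb. A list of 20 immediate early genes summed to 99601 to 232634 in PICs and 105997 to 197537 in satellite cells, and their part in Rgs16 and Pde12 was not tested. Of these 20, 1 was called (Egr3, 2.21 higher in PICs, adjusted p = 0.0274), and 5 were called with the replicate number as a block. Egr3 was not called without satellite replicate 1 or 2 or PICs replicate 2 or 3 (adjusted p 0.0645 to 0.0813).

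Rgs5, widely used as a pericyte marker, lay at 13.01, 12.45 and 11.26 in PICs and 12.84, 12.07 and 12.61 in satellite cells (difference -0.27, 95% interval -1.37 to 0.83; adjusted p = 0.648). All 4 of its probe sets gave a negative difference, and none was called. PICs replicate 3 had the lowest Rgs5 value of the 6 arrays. On that array the smooth muscle gene Myh11 lay at 3.70, with 8.91 and 7.73 on the other PIC arrays and 8.76, 7.23 and 6.57 in satellite cells. The endothelial cadherin gene Cdh5 read 11.07, 10.72 and 8.50 in PICs and 10.46, 9.73 and 9.36 in satellite cells. The part of mural and endothelial RNA in the Rgs5 values was not tested.

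**Figure D2:**
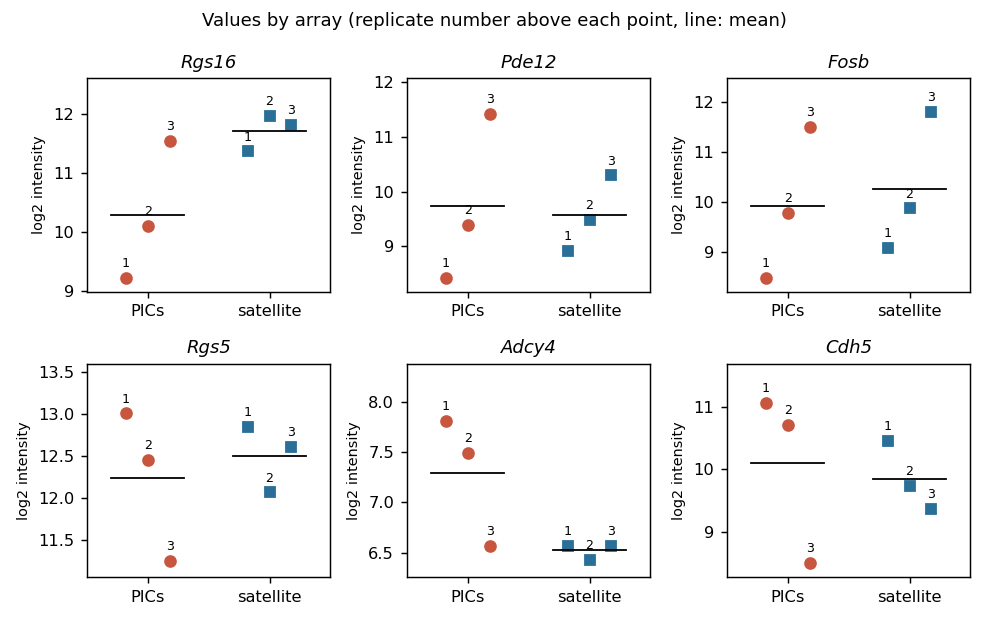
Log2 intensity (y axis, own scale in each panel) on the 3 PIC arrays and the 3 satellite arrays, with the replicate number above each point and the mean as a line. PICs replicate 3 is the highest PIC array for Rgs16, Pde12 and Fosb and the lowest for Rgs5, Adcy4 and Cdh5.

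Adenylyl cyclase genes were called in 6 of 8 tested members, 5 of them higher and 1 lower in PICs (median difference 1.20). As shares this was 62.5% and 12.5%, against 16.7% and 13.0% of all genes. Adcy5, a cyclase inhibited by calcium, lay at 7.50, 7.30 and 7.12 in PICs and 3.91, 2.58 and 4.17 in satellite cells. Its satellite mean was under the low value level with 1 array above it, so the fitted difference of 3.75 is uncertain in size (adjusted p = 0.000443); the PIC mean exceeded that level by 3.31. Adcy1, which calcium and calmodulin stimulate, had linear intensities of 150, 122 and 92 in PICs and 21, 21 and 22 in satellite cells (5.58-fold, adjusted p = 0.000137). Adcy7 lay at 12.53, 12.57 and 12.70 in PICs and 11.29, 11.15 and 11.44 in satellite cells (2.47-fold, adjusted p = 0.000267), and its other 2 probe sets gave 1.34 and 1.43 on the log2 scale. Adcy9 differed by 1.38 (adjusted p = 0.0057), at 6.70, 6.54 and 6.79 in PICs and 5.86, 4.75 and 5.29 in satellite cells; without both arrays numbered 3 its adjusted p was 0.0527. Adcy3, best known from olfactory neurons, lay at 7.94, 8.34 and 8.35 in PICs and 7.02, 6.88 and 7.40 in satellite cells (1.10, adjusted p = 0.00286), and without satellite replicate 2 the difference fell just short of the 2-fold limit at 0.995 (adjusted p = 0.0133).

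Adcy2, a cyclase that beta-gamma subunits stimulate together with Gs, went the other way. It lay at 6.46, 6.15 and 6.74 in PICs and 9.39, 9.54 and 9.85 in satellite cells, an 8.84-fold difference (log2 difference -3.14, adjusted p = 8.4e-05). Adcy6, which calcium inhibits, lay at 10.26, 10.08 and 9.56 in PICs and 9.84, 9.88 and 9.94 in satellite cells and was not called (0.08, 95% interval -0.39 to 0.54). Adcy4, which beta-gamma subunits also stimulate, read 225, 180 and 95 in PICs and 95, 86 and 95 in satellite cells as linear intensities. It was not called (0.77, adjusted p = 0.076), and without PICs replicate 3 it was (1.13, adjusted p = 0.00189). Adcy8 and the soluble cyclase gene Adcy10 stayed under the low value level on every array.

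Of 14 phosphodiesterase genes tested, 2 were higher and 5 lower in PICs and 7 were not called (median difference -0.32). The shares higher and lower were 14.3% and 35.7%, against 16.7% and 13.0% of all genes. The 5 that were lower all encode enzymes that break down cAMP, 3 of them cGMP as well. Over the 10 tested genes of enzymes that act on cAMP, 1 was higher and 5 were lower in PICs, with a median of -0.95.

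Pde1c, a calmodulin-dependent enzyme of both nucleotides, had the largest difference of all members. It lay at 4.25, 3.17 and 3.32 in PICs and 9.12, 9.01 and 8.81 in satellite cells (difference -5.40, 95% interval -6.11 to -4.70; adjusted p = 6.02e-05). The PIC mean was under the low value level, and the satellite mean was 4.98 above it. On a second Pde1c probe set no PIC array was above that level (7, 6 and 6, against 139, 151 and 208 in satellite cells), and satellite cells were higher by at least 10.2-fold. Pde2a, which cGMP activates, lay at 9.77, 8.81 and 8.59 in PICs and 11.89, 11.61 and 11.31 in satellite cells (5.85-fold lower in PICs, adjusted p = 0.000866), and its other probe set above the low value level gave -3.54. Pde3b, which cGMP inhibits, lay at 8.44, 8.14 and 8.44 in PICs and 9.99, 10.27 and 10.63 in satellite cells (difference -1.95, adjusted p = 0.000294).

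Of the 3 members of the cAMP-specific Pde4 class, Pde4b and Pde4d were lower in PICs, and Pde4a stayed under the low value level on all 6 arrays. Pde4d lay at 6.99, 6.66 and 6.83 in PICs and 9.28, 9.23 and 9.14 in satellite cells, a 5.24-fold difference (log2 difference -2.39, adjusted p = 5.8e-05). Pde4b lay at 11.10, 11.08 and 11.26 in PICs and 12.23, 12.45 and 12.35 in satellite cells (-1.20, adjusted p = 0.000292). A second Pde4b probe set gave -1.31, and a further one gave -0.70 and was not called (adjusted p = 0.0973). Pde7a and Pde7b, also specific for cAMP, were lower on all PIC arrays by less than 2-fold (-0.47 and -0.70; adjusted p = 0.0159 and 0.00991). Pde7a lay at 8.83, 9.04 and 8.90 in PICs and 9.28, 9.38 and 9.51 in satellite cells, and 2 of its probe sets other than the one used were past the 2-fold limit, at -1.14 and -1.25. Pde8a differed by 0.69 in the other direction (adjusted p = 0.0319), and Pde10a was not called on the probe set used (-0.17, 95% interval -0.47 to 0.13).

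The phosphodiesterases higher in PICs were Pde9a and Pde1a. Pde9a, an enzyme specific for cGMP, had linear intensities of 96, 163 and 200 in PICs and 12, 10 and 17 in satellite cells (fitted difference 3.53, adjusted p = 0.000231). Its satellite mean was under the low value level, which the PIC mean exceeded by 3.19. Pde1a, a calmodulin-dependent relative of Pde1c, read 31, 43 and 29 in PICs and 8 on each satellite array, at least 2.11-fold higher in PICs. It entered the test through PICs alone, which fixed the direction of its difference, so its call is no independent support. Pde1a and Pde1c were thus called in opposite directions, and the third gene of their class, Pde1b, stayed under the low value level. Pde5a, which is specific for cGMP, lay at 9.65, 9.68 and 10.14 in PICs and 8.85, 9.16 and 9.47 in satellite cells, higher on all PIC arrays by 0.66 (adjusted p = 0.0361), and so was Pde6d, a carrier of prenylated proteins, by 0.63 (adjusted p = 0.0221).

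**Figure D3:**
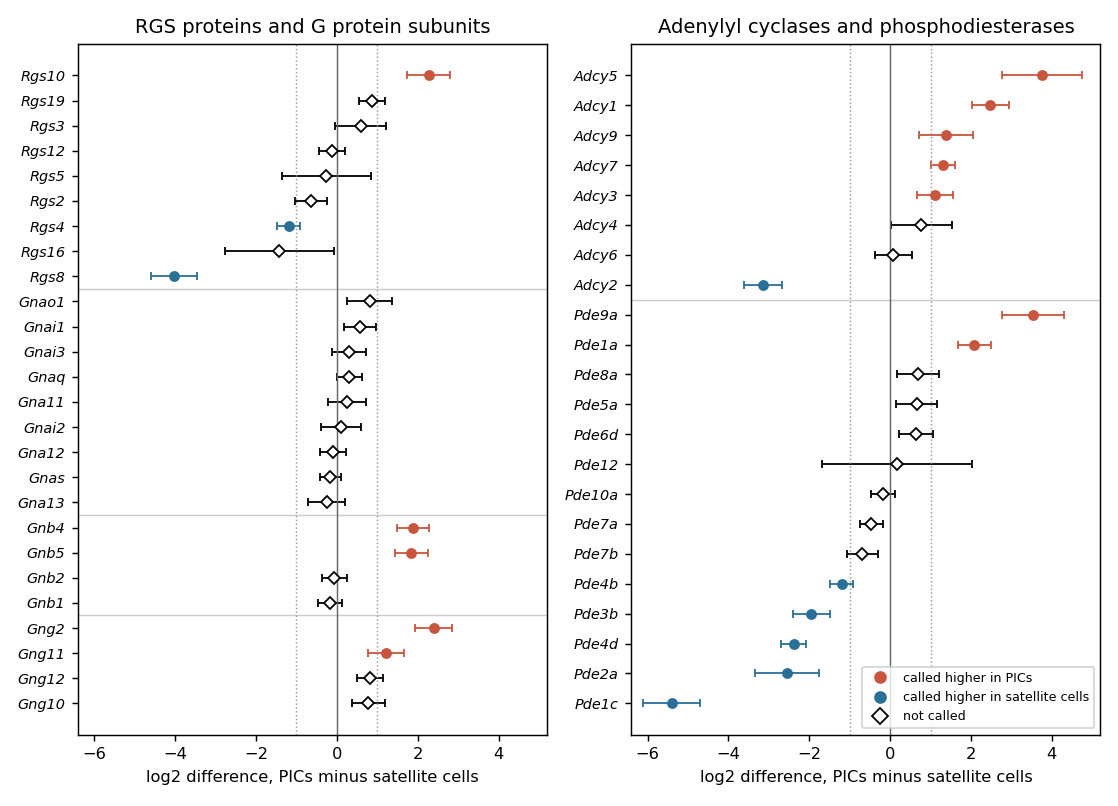
Log2 difference of PICs minus satellite cells (x axis) for the 48 tested members, with 95% limma intervals; filled circles are called and open diamonds are not, and dotted lines mark 2-fold. All alpha subunit genes are open, 5 cyclases lie to the right of 0 as called, and 5 phosphodiesterases lie to the left as called, with Pde1c at -5.40.

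Several probe sets of a member mostly gave the same result, which in most of these members was no call. Of 29 members with at least 2 probe sets above the low value level, 23 had the same result on all of them, 6 were called on some only, and 0 were called in opposite directions. Of the 23, Adcy7, Gnb4, Gng2, Pde1c, Pde2a and Rgs4 were called on all of theirs, and the rest on none. The members called on some only were Adcy3, Adcy9, Gnas, Pde4b, Pde7a and Rgs16. For Rgs16 the second probe set read 442, 1105 and 1661 in PICs and 2025, 3377 and 2648 in satellite cells and was called, at -1.49 (adjusted p = 0.0469).

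**Figure D4:**
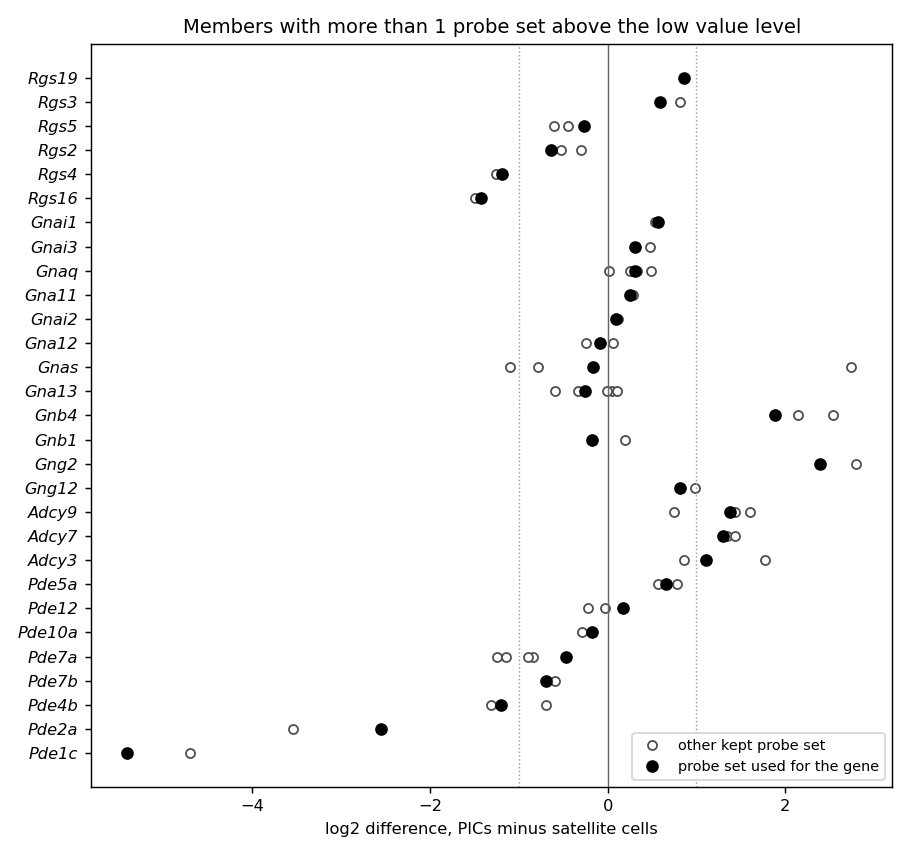
Log2 difference of PICs minus satellite cells (x axis) for each probe set above the low value level, in the 29 members that have more than 1; filled points are the probe sets used and open points the others. Values of probe sets with 1 population under the low value level, such as the highest Gnas point, are fitted differences and their size is uncertain.

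RefSeq promoter windows of GRCm38.p6 (250 bases before to 50 after a gene's start) were matched by symbol for 61 of the 83 members, 98 windows in all. They were searched on both strands for CAGCTG, an E-box form bound by myogenic factors, for the cAMP response element TGACGTCA, and for TGACG, which is contained in that element. CAGCTG was in at least 1 window of 4 of the 7 matched members that were higher in satellite cells (Pde1c, Pde4b, Pde4d and Rgs8) and of 2 of the 9 that were higher in PICs (Gng2 and Pde1a). It was in at least 1 window of 19 of the 61 matched members and of 4944 of all 27025 genes with a window. A gene with more windows has more chances of a match. By window, CAGCTG was in 5 of 18 and 3 of 15 windows of these 2 groups of called members. It was in 21.4% of the members' 98, against 16.3% of all 32851 windows. Differences between these shares were not tested. TGACGTCA was in 0 of the 98 windows and in 1.79% of all windows, and TGACG was in 20.4% and 20.8%. These matches describe letters and show no binding, and the arrays do not tell which start a population uses. The bases before the start are given for 3 satellite-high members whose CAGCTG lies there, and for Pde1a, the calmodulin-dependent gene that was higher in PICs, with CAGCTG in capitals.
Pde1c (chr6:56362811-56363060, minus strand): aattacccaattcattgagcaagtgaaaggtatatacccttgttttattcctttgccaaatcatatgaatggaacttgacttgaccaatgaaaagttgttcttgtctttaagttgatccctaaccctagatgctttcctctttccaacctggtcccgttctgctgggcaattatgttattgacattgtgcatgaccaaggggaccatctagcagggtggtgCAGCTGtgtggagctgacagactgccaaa
Pde4d (chr13:108653927-108654176, plus strand): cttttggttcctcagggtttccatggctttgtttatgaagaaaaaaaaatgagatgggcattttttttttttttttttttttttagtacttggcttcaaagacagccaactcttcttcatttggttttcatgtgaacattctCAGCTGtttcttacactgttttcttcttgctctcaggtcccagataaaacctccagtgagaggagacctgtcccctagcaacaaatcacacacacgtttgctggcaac
Rgs8 (chr1:153665423-153665672, plus strand): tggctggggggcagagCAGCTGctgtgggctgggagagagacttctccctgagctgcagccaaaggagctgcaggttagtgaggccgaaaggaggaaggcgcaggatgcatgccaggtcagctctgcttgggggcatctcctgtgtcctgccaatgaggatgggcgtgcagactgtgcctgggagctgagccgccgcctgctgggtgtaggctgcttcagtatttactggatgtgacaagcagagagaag
Pde1a (chr2:80129413-80129662, minus strand): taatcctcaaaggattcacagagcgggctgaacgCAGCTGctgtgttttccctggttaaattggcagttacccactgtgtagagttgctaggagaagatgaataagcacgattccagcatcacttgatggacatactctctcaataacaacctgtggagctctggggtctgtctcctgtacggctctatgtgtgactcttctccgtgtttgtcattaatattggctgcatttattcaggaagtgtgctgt
The match begins 29 bases before the start in Pde1c, 108 in Pde4d, 234 in Rgs8 and 216 in Pde1a. Pde4d has 1 window in the table, Pde1c and Rgs8 have 3 each and Pde1a has 4, of which 1 is shown.

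Receptors that act through these G proteins were described from lists by coupling class. Beside the counts of this and the following lists, 16.7% of all genes tested were higher and 13.0% lower in PICs. No list was tested against these shares. Of 33 genes of Gs-coupled receptors, 7 passed the filter, with 6 higher and 1 lower in PICs. Those higher in PICs included Ptgir, the prostacyclin receptor (at least 7.97-fold), Pth1r, the parathyroid hormone receptor (log2 difference 3.25), and Adcyap1r1, a receptor for PACAP (2.51). Calcr, the calcitonin receptor gene, lay at 7.53, 5.91 and 4.25 in PICs and 11.72, 11.56 and 10.80 in satellite cells (-5.46, adjusted p = 0.00139). The receptor partners Ramp3 and Ramp1, which change the ligand choice of calcitonin family receptors, differed by 4.73 and 3.87 towards PICs. Of 7 Gq-coupled receptor genes that passed, 5 were higher and 0 lower in PICs, with the vasopressin receptor gene Avpr1a at 4.29 and the angiotensin receptor gene Agtr1a at 3.62. Gi-coupled receptor genes were split, 3 of 7 higher in PICs (P2ry14 at 5.53) and 2 lower: the cannabinoid receptor gene Cnr1, higher in satellite cells by at least 37.1-fold, and Cxcr4 (-2.97). In the list of receptor kinases and arrestins, which switch receptors off, 2 of 6 were higher in PICs, with Grk5 at 2.09.

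Lists downstream of cAMP held calls in both directions. Of 8 protein kinase A genes that passed, 0 were higher and 3 lower in PICs: the regulatory subunit genes Prkar2b (-2.36) and Prkar1a (-1.31) and the inhibitor gene Pkia (-1.66). Prkar2b lay at 7.16, 6.89 and 7.17 in PICs and 9.29, 9.48 and 9.54 in satellite cells. A-kinase anchoring genes, which place the kinase in the cell, were divided, 2 of 13 higher in PICs (Akap12 at 3.05) and 4 lower (Akap6 by at least 2.49-fold, Akap5 at -2.33). Of other cAMP binding proteins, the Popeye family genes Popdc2 (at least 20.9-fold), Popdc3 (-5.18) and Bves (at least 11.8-fold) were higher in satellite cells, and Rapgef3, the cAMP-regulated Rap exchange factor, was higher in PICs (2.50; adjusted p = 0.0545 without the filter on low values). Of 14 cAMP response factors and targets that passed, limma called 0, with 1 at an unadjusted p under 0.05. This was Creb1, the gene of the cAMP response element binding protein, at -0.58 (adjusted p = 0.0135, short of 2-fold). With the replicate number as a block, limma also called 0. In that fit Nr4a1 (0.88), Nr4a2 (0.55) and Nr4a3 (-0.73) passed the p threshold short of 2-fold (limma, adjusted p = 0.00188, 0.0363 and 0.0255).

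The cGMP and phospholipase C lists held more calls that were higher in PICs. The cGMP list held genes of cGMP synthesis, natriuretic peptide receptors, nitric oxide synthases and cGMP kinases. Of its 7 genes that passed, 5 were higher and 0 lower in PICs (median 1.94). They included the soluble guanylyl cyclase genes Gucy1b3 (2.32) and Gucy1a2 (2.13). Npr3 (2.69), also among them, encodes a natriuretic peptide receptor that is not a cyclase. Of 18 phospholipase C, protein kinase C and inositol trisphosphate receptor genes, 8 were higher in PICs (Plcd1 at 2.36, Prkca at 2.24) and 2 lower (Prkcq at -3.55, Prkcb at -1.99). Of 5 genes of G12 class effectors, limma called 0, with 2 at an unadjusted p under 0.05. A list of G protein regulators without an RGS symbol also held the Ramp genes and the Rap exchange factor gene Rapgef3. Of its 16 genes that passed, 6 were higher and 1 lower in PICs. Ramp1, Ramp3 and Rapgef3, named above, were among the 6. The rest were Gpsm2, Gpsm3 and Ric8a, and each of these was not called under some of the alternatives. Over all these lists together with the immediate early genes, 38 of 127 tested genes were higher and 16 lower in PICs, or 29.9% and 12.6%, against 16.7% and 13.0% of all genes.

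**Figure D5:**
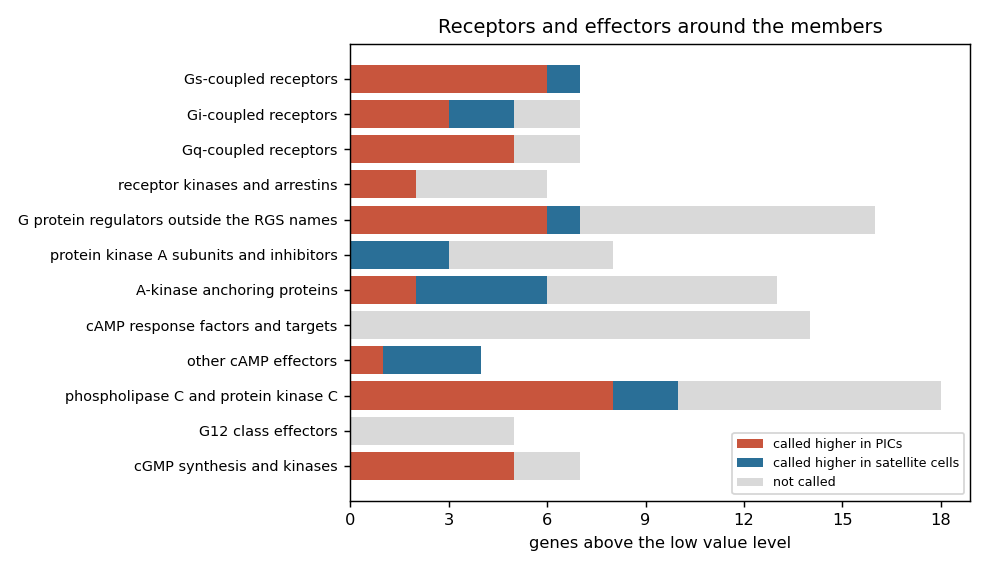
Number of genes above the low value level (x axis) in 12 lists of receptors and effectors, divided into those called higher in PICs, called higher in satellite cells and not called. Gs-coupled receptors show 6 and 1 calls in these directions, protein kinase A genes 0 and 3, and the cGMP list, which includes Npr3, 5 and 0.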

How the data were processed

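RNA from 3 PIC and 3 satellite cell samples (200 ng total RNA each) was hybridised to Affymetrix mouse arrays. The deposited values are linear intensities written as whole numbers, made with GCRMA per the submitters' processing notes, and GCRMA models probe background from sequence, so values near its floor have no order. They were taken to log2 as deposited. The number of arrays limits the precision; 44.7% to 45.5% of probe sets lay above the low value level on each array. The labels call the samples biological replicates, and nothing says that they came from separate animals. The p-values set the difference between populations against the spread between these samples, with limma's variance moderated over all genes tested.

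Probe sets were named from the platform annotation: 34945 had 1 symbol, 932 several and 9160 none. Those with 1 symbol and log2 above 4 on at least 3 of 6 arrays were kept, 18433 in all, and 1 was used per gene, the one of the highest mean. limma 3.58.1 in R 4.3.3 (lmFit and eBayes), tested on simulated data, compared the populations with Benjamini-Hochberg adjustment over 10855 genes. A call needed an adjusted p under 0.05 and a 2-fold difference. Fold values marked "at least" set a population against the low value level where all arrays of the other were under it.

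Values per array are given for called members of the largest difference, up to 6 per family and direction, and for up to 3 uncalled members per family of the highest mean. Of the receptor and effector lists, up to 3 called genes per direction were named. Genes outside this rule (Gna14, Gng8, Rgs18, Pde12, Creb1, Prkar2b, Pde4a and Peg3 among them) were chosen after their values were seen. Members and lists were chosen with earlier results of these data known.

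Same-numbered arrays of the 2 populations deviated together from their means over these genes (correlation 0.623, 0.222 and 0.579; unequal numbers -0.568 to 0.0363). No label says what a number marks, and the main fit did not use it. The intervals, adjusted p-values and calls above are thus unpaired unless the block is named. A blocked fit on the replicate number was among the alternatives and is given where it changed a call. Alternatives covered the block, the filter, the probe set rule, a floor, centring, the variance model, array weights, the fold limit and arrays left out.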

Additional observations from a re-analysis of the deposited data

How the results depend on the processing

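The counts of called members were 12 higher and 8 lower in PICs. Without the 2-fold limit they were 20 and 11. Leaving out each array in turn gave 11 to 14 and 8 to 9, and the replicate block gave 12 and 9. The receptor, effector and immediate early lists together had 54 calls, 52 to 55 with an array left out, 58 with the replicate block and 50 with no filter on low values. Without the immediate early genes there were 53 calls, and 53 with the block. None of the 20 called members changed direction under the 18 alternatives that refitted the values. All 20 were called again under 13 of these. The stricter filter left out Pde1a, and the choice of probe sets with no mark of related transcripts left out 2 members, so their calls could not be repeated there. Adcy3 was not called without satellite replicate 2 or without both arrays numbered 2 (0.93, adjusted p = 0.0592), and Adcy9 was not called without both arrays numbered 3. Rgs16, Adcy4 and Gnao1 gained a call without PICs replicate 3. With array weights Rgs16 was -1.78 (adjusted p = 0.000833) and Adcy4 1.03 (adjusted p = 0.000575). Apart from Rgs16 the block changed no call of a member. Among list genes, Egr3 and Gpsm3 lost their call under the most alternatives, and Rapgef3 and Prkce lost it with no filter. The cause of these changes was not tested. Signal near the floor limits Adcy5, Pde9a and Pde1c in size and leaves Gng8, Gna14 and the R7 genes without a level in 1 or both populations.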

Other observations

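Gng5, the gene of a widely used gamma subunit, was outside the members because its 3 probe sets carry the symbol of a pseudogene too. A probe set stayed under the low value level, at 8 on 5 arrays and 10 on satellite replicate 3. Another read 3588, 3460 and 3037 in PICs and 2944, 2881 and 2734 in satellite cells as linear intensities, and the remaining one read 11268, 11021 and 8879 in PICs and 9261, 7934 and 8423 in satellite cells. On the dimmer of these the PIC arrays were all above the satellite arrays, and on the brighter one PICs replicate 3 lay below satellite replicate 1.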
